A study of Mus musculus with 18 samples.

Results

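Major urinary protein genes were examined in the liver of 18 mice, as the 7 genes Mup1, Mup3, Mup7, Mup11, Mup17, Mup20 and Mup21 chosen by their names from a table of 54532 annotated genes. The liver RNA came from 6 normal control (NC) mice on normal chow, 6 control mice on a high-fat diet (HFD) and 6 mice on that diet treated with SZ-A, an alkaloid extract of mulberry twig (Ramulus Mori). All were male C57BL/6J mice (C57BL/6 in the sample labels), 6 weeks old at the start, on normal chow or the high-fat diet for 14 weeks before treatment, and fasted overnight before the tissue was taken. The HFD control mice then received saline and the SZ-A mice SZ-A, for 8 weeks by the deposited design and for 6 weeks by the published methods, at a dose and by a route not named for these livers. One label of NC6 names the high-fat diet. Its title puts it in NC, where it was kept, and without it the count of Mup genes called, given below, was still 0 in both comparisons with NC.

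Major urinary proteins (MUPs) are small secreted proteins of the lipocalin family, which carry small lipophilic molecules in a barrel-shaped pocket. Hepatocytes make them, the kidney passes them into urine, and there they bind volatile pheromones and serve mice as scent marks of sex and individual identity. In the liver their transcription is known to depend on pulses of growth hormone acting through STAT5B, on androgens, and on thyroid and glucocorticoid hormones, and adult males express most of them at far higher levels than females. Mup20 encodes darcin, a male pheromone that attracts females, and Mup1 has been linked to glucose metabolism in mice.

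The genes lie in a tandem array. Of 48 annotated Mup entries (21 protein-coding genes and 27 pseudogenes), 47 were on chromosome 4 between 59956804 and 62150863 (GRCm38), a stretch of 2.19 Mb. All 7 genes described here are protein-coding and on the minus strand. In order along the chromosome they are Mup7 (ENSMUSG00000073842, chr4:60066469-60070475), Mup1 (ENSMUSG00000078683, chr4:60498012-60501960), Mup11 (ENSMUSG00000073834, chr4:60658466-60662411), Mup17 (ENSMUSG00000096688, chr4:61591929-61595871), Mup20 (ENSMUSG00000078672, chr4:62050234-62054158), Mup3 (ENSMUSG00000066154, chr4:62083476-62087342) and Mup21 (ENSMUSG00000066153, chr4:62147932-62150863).

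How alike the copies are decides which sequenced fragments can be assigned to a single gene, so 60 coding bases of each are shown. The stretch was chosen as the window within 1 exon that varied most among the 7 genes. The bases are from GENCODE M21 transcripts (GRCm38, minus strand), written 5′ to 3′, with capitals at bases that differ from Mup7.
Mup7 chr4:60068902-60068961: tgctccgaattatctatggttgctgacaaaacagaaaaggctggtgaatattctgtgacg
Mup17 chr4:61594352-61594411: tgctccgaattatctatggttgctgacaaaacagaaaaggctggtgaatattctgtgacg
Mup11 chr4:60660889-60660948: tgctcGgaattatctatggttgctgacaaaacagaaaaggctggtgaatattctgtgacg
Mup1 chr4:60500440-60500499: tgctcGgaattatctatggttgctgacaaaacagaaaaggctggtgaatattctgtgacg
Mup20 chr4:62052637-62052696: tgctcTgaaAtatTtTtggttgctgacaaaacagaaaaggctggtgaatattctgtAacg
Mup21 chr4:62149355-62149414: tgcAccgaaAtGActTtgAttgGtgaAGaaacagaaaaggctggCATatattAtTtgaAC
Mup3 chr4:62085960-62086019: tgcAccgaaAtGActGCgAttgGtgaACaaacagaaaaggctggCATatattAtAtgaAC
Mup17 did not differ from Mup7 in this window, Mup1 and Mup11 differed at 1 base each, Mup20 at 5, Mup21 at 16 and Mup3 at 17. Over the whole coding sequence (540 to 552 bases), Mup1, Mup7, Mup11 and Mup17 were 98.3% to 99.1% identical to each other. Mup3 and Mup21 were 94.7% identical to each other and 82.1% to 84.7% identical to those 4 genes, with Mup20 between, at 90.1% to 91.3% to the 4.

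The identity set how much of each gene a read could tell apart. Among all stretches of 150 bases (the read length) in the annotated transcripts, every one of Mup3 and of Mup21 occurred in no other annotated gene. The share of such stretches was 68.9% for Mup20, 59.6% for Mup17, 47.5% for Mup1, 35.2% for Mup11 and 32.9% for Mup7. Every gene that shared a stretch with one of the 7 was another Mup entry. Values of Mup1, Mup7, Mup11 and Mup17 can therefore hold or lack fragments of each other and of other copies, since how fragments that match several genes were treated is not given in the sources used here. Mup20 can likewise hold or lack fragments of 1 other Mup entry, with which it shared stretches. Mup3 and Mup21 shared no such stretch.

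The stretches upstream of the start are shown for Mup3 and Mup21, the pair with the most distinct sequences, because their 150-base stretches were all their own. They hold the 120 bases before the RefSeq start (GRCm38.p6, minus strand, 5′ to 3′), and capitals mark the letters TATATAA.
Mup3 chr4:62087318-62087437: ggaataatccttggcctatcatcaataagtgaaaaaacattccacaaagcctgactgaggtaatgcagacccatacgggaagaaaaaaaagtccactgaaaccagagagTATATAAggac
Mup21 chr4:62150842-62150961: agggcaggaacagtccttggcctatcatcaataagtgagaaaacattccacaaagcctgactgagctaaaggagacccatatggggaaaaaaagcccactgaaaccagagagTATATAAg
The letters TATATAA began 11 bases before the RefSeq start of Mup3 and 8 before that of Mup21, and were in the windows of 13 of the 14 Mup genes in the RefSeq promoter table (250 bases before to 50 after the start, both strands searched), 4 of them among the 5 members listed there. They occurred in 3.24% of all 32851 promoters, and were searched for after the sequences had been seen. RefSeq and GENCODE place the starts of these genes at slightly different bases. By the gene coordinates given above, Mup3 starts at 62087342 and Mup21 at 62150863, upstream of these letters. The printed stretches thus partly overlap those genes, and the letters lie inside them. The letters TTCNNNGAA, the pattern that STAT5 proteins bind, were in 0 of the 14 Mup windows and in 8.30% of all promoters. TATAAA was in 2 of the 14 Mup windows (13.6% of all) and in no member. AGAACA, a half-site of steroid hormone receptors, was in 2 (19.0% of all), those of Mup3 and Mup21. These are letter matches within a short window and no statement about the factors.

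The values are FPKM, fragments scaled by gene length and library size, made by the authors. FPKM values are not counts, and they compare levels between genes only as far as the gene lengths used are right. Those lengths were 1584 bases for Mup1 and 1576 for Mup11, whose transcripts used here for coding sequences have 927 and 930. For Mup17 and Mup20 the lengths, 927 and 928, equalled those of the transcripts. Levels of Mup1 and Mup11 may therefore be understated beside Mup17 and Mup20. Multiplied by gene length, every value gave whole fragments within a tolerance of 0.05 of a fragment. Depth worked back in this way was 17163191 to 20493907 fragments on genes per mouse. Behind the members stood from 34 fragments (Mup21 in NC5) to 167021 (Mup7 in SZ-A5) per gene and mouse. The markers fitted liver, with 6 hepatocyte markers at a sum of at least 22852 FPKM in each mouse, while 4 pancreas acinar markers summed to at most 0.345 FPKM and 5 T cell markers to at most 2.14.

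The 7 genes ranged from some of the most abundant liver transcripts to Mup1, the 1685th gene of the table by mean level (23.4 FPKM). Averaged over the 18 mice, Mup3 was the 8th most abundant gene of the table, Mup7 the 14th and Mup20 the 30th. Together the 7 genes took 0.508% to 2.48% of each library and 67.9% to 93.0% of the fragments of all Mup entries. Within a mouse, Mup3 made up 29.4% to 72.8% of their summed FPKM, Mup7 3.89% to 40.8% and Mup20 8.03% to 29.6%, whereas Mup1 did not exceed 0.590%.

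**Figure D1:**
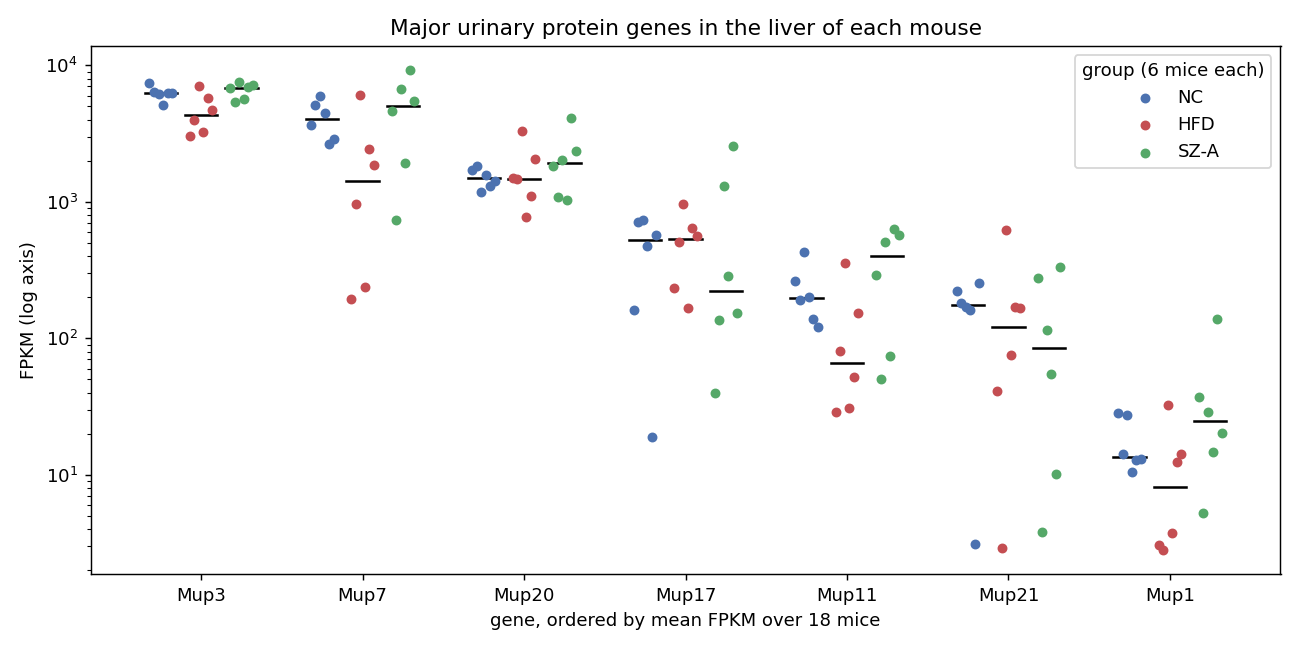
FPKM on a log axis of the 7 major urinary protein genes, ordered by mean level, with 1 point for each mouse, coloured by group (6 mice each), and a bar at each group's median. The NC mice of Mup3 and Mup20 sit close together, whereas the HFD mice of Mup7 run from 195 to 6055, and single mice of Mup17 and Mup21 lie far below the rest.

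Mup3 was the highest and the steadiest. It stood at 7390, 6390, 6140, 5124, 6255 and 6322 FPKM in NC1 to NC6, at 3026, 3979, 7084, 3259, 5807 and 4720 in HFD1 to HFD6, and at 6795, 5397, 7546, 5629, 6958 and 7142 in SZ-A1 to SZ-A6. The group means were 6270 ± 722 (SD, n = 6), 4646 ± 1568 and 6578 ± 865. Of the HFD mice, 4 lay below the lowest NC mouse, while HFD3 and HFD5 lay within the NC range, and no SZ-A mouse lay below the HFD median.

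Mup7, the second of the 7 in level and nearly identical in coding sequence to Mup1, Mup11 and Mup17, varied far more. The NC mice had 3664, 5141, 5990, 4439, 2636 and 2865 FPKM. The HFD mice had 195, 970, 6055, 237, 2425 and 1866, and the SZ-A mice had 4592, 733, 6749, 1930, 9249 and 5442. Thus 5 of the 6 HFD mice were below every NC mouse and the remaining one, HFD3, was above every NC mouse, with 31.0 times the level of HFD1. In the SZ-A group, SZ-A2 and SZ-A4 were below every NC mouse and SZ-A3 and SZ-A5 above.

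Mup20, the darcin gene, was at 1720, 1834, 1178, 1567, 1304 and 1430 FPKM in the NC mice. It was at 1484, 1459, 3308, 774, 1103 and 2060 in the HFD mice, and at 1821, 1086, 2018, 1028, 4100 and 2376 in the SZ-A mice. HFD3 and SZ-A5 were again the highest of their groups, and the group means of 1506 (SD 249.4), 1698 ± 898 and 2072 ± 1126 were closer than the mice within HFD or SZ-A.

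Mup17 split mice of the same group. In NC it was 19.0 FPKM in NC5 and 161 in NC1, against 477 to 734 in the other 4 mice. In HFD it ran from 165 (HFD4) to 962 (HFD3), with a median of 534. In SZ-A it was 39.8 in SZ-A1, 136 in SZ-A2, 155 in SZ-A6 and 288 in SZ-A4, against 1308 in SZ-A3 and 2549 in SZ-A5. The 6 SZ-A mice thus spanned a ratio of 64.0, and 3 of them lay below every HFD mouse and 2 above.

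Mup11 followed Mup7 at a lower level. Its lowest, median and highest values were 120, 197 and 432 FPKM in NC, 29.0, 66.2 and 353 in HFD, and 50.7, 398 and 635 in SZ-A. HFD3 was the highest HFD mouse and SZ-A5 the highest SZ-A mouse, and 4 HFD mice were below every NC mouse.

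Mup21 was the most uneven of the 7. It was 3.10 FPKM in NC5 (34 fragments) against 160 to 253 in the other NC mice. In HFD it was 2.89 in HFD2 (45 fragments), 41.3 in HFD1, 75.8 in HFD4, 167 in HFD6, 170 in HFD5 and 618 in HFD3. In SZ-A it was 3.80 in SZ-A2 (51 fragments) and 10.1 in SZ-A5, which was the highest SZ-A mouse for Mup1, Mup7, Mup11, Mup17 and Mup20, against 54.6 to 334 in the other 4. Each group thus held at least 1 mouse with almost no Mup21.

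Mup1, the lowest of the 7, stood at 28.4, 14.2, 27.5, 10.4, 12.8 and 13.0 FPKM in the NC mice. It stood at 3.05, 2.80, 32.4, 3.78, 12.4 and 14.1 in the HFD mice, and at 37.1, 5.22, 28.9, 14.6, 140 and 20.3 in the SZ-A mice. Again HFD3 and SZ-A5 were the highest of their groups, and SZ-A2 the lowest of its own.

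The order of the levels held in most mice for some neighbours only. Mup3 exceeded Mup7 in 17 of 18 mice, the exception being SZ-A5. Mup20 exceeded Mup17 in 18 of 18. Mup7 exceeded Mup20 in 13 of 18 mice, but in 2 of the 6 HFD mice. Mup17 exceeded Mup11 in 14, Mup11 exceeded Mup21 in 12 (1 of 6 in HFD), and Mup21 exceeded Mup1 in 15. The neighbours Mup7 and Mup20, Mup17 and Mup11, and Mup11 and Mup21 therefore did not keep their order beyond the spread between mice.

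The spread between mice of the same group was among the widest of all genes for 5 of the 7. As the SD of log2(FPKM + 0.1) within groups, it was 2.55 for Mup21, the 4th widest of 10216 genes tested (those with a mean FPKM of at least 1). It was 1.83 for Mup17 (38th), 1.4 for Mup7 (76th), 1.28 for Mup11 (89th) and 1.27 for Mup1 (91st). Mup20 had an SD of 0.62 (553rd) and Mup3 of 0.31 (2504th), and the median of all genes tested was 0.21. The widest spread of all belonged to another copy, Mup10, chosen for mention after its values were seen, with an SD of 3.31. Mup10 stood at 775 FPKM in SZ-A1, 1136 in SZ-A3 and 118 in HFD5, and at 0.488 to 2.15 in the other 15 mice, while 27.7% of its 150-base stretches were its own.

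**Figure D2:**
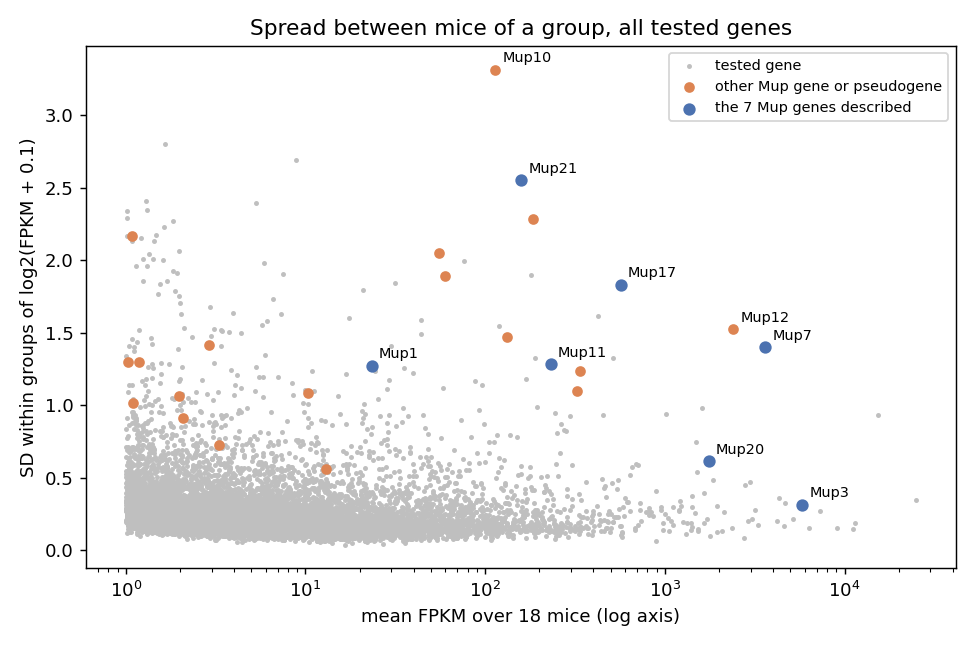
SD within groups of log2(FPKM + 0.1) against mean FPKM (log axis) for the 10216 genes tested, with the 7 Mup genes in blue and other Mup genes and pseudogenes in orange. Mup21 (SD 2.55), Mup17 and Mup7 lie far above the median of 0.21, and Mup3 (SD 0.31) lies near the bulk of genes of its level.

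The mice that were high or low for one gene were largely so for others. After subtracting group means, all 21 pairs of the 7 genes had a positive Pearson's r over the 18 mice, from 0.24 to 0.87 (median 0.51). Of these, 10 pairs had an adjusted p under 0.05 for both Pearson's r and Spearman's rho (two-sided permutation within groups, 100000 permutations, adjusted over the 21 pairs). Mup7 and Mup11 had r = 0.87 (adjusted permutation p = 0.00105) and rho = 0.82 (adjusted permutation p = 0.0064), and r = 0.87 without the 2 mice farthest from the median. Mup3 and Mup7 had r = 0.87 (adjusted permutation p = 0.00241) and rho = 0.79 (adjusted permutation p = 0.00672), and r = 0.78 without 2 mice. Mup17 and Mup21 were the loosest pair, with r = 0.24 and rho = 0.17 (adjusted permutation p = 0.365 and 0.516), and r = 0.09 without 2 mice.

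Of the 6 pairs among the near-identical Mup1, Mup7, Mup11 and Mup17, 4 were among the 10 pairs past both tests, with r from 0.44 to 0.87 (median 0.65). Of the other 15 pairs, 6 were, with r from 0.24 to 0.87 (median 0.46). The pair Mup3 and Mup7 was the least alike in coding sequence of all 21 (82.1%) and shares no 150-base stretch, and it had the second highest r. Mup1 and Mup17 were 98.7% identical and had r = 0.44 (adjusted permutation p = 0.112), with rho = 0.52 (adjusted permutation p = 0.0476) and r = 0.31 without 2 mice. What part shared fragments had in the r of the near-identical pairs was not tested.

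**Figure D3:**
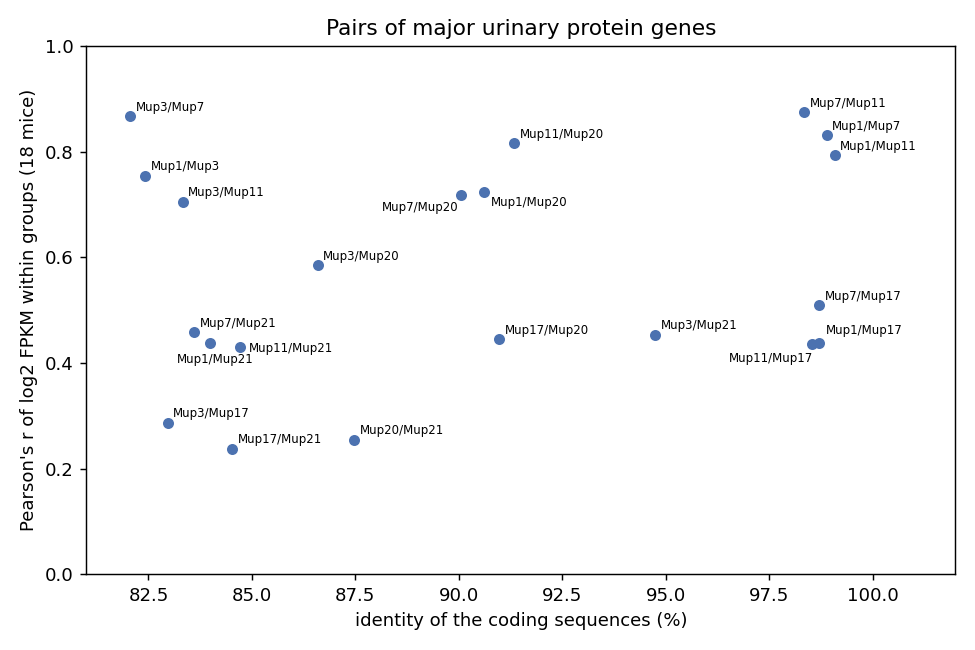
Pearson's r within groups over 18 mice (vertical axis, log2 FPKM with group means subtracted) against the identity of the coding sequences in percent (horizontal axis), with 1 point for each of the 21 pairs of the 7 genes. High r occurs at both ends of the identity axis, at 0.87 for Mup3 with Mup7 (82.1% identical) and 0.87 for Mup7 with Mup11 (98.3%).

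The non-Mup genes most like the 7 across mice were Sdr9c7, Gm35696 and Cyp7b1, ranked over 10191 genes by Pearson's r with the mean of the 7 standardised values within groups (18 mice, given as a description). Sdr9c7, a member of the short-chain dehydrogenase/reductase family, had r = 0.86. Gm35696, a predicted gene, had r = 0.85. Cyp7b1, the oxysterol 7α-hydroxylase of the alternative bile acid pathway and itself expressed more in male liver, had r = 0.84. These values come from the same libraries, and all share their depth and tissue piece.

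The first question of the design is what the high-fat diet did. In HFD against NC, none of the 7 genes passed the test (limma, Benjamini-Hochberg adjusted p under 0.05 and fold change over 1.2), against 20.2% of all 10216 genes (10.7% higher and 9.49% lower). At an unadjusted p under 0.05 there were 3 of 7, Mup3, Mup7 and Mup11, all lower in HFD, against 34.8% of all genes (16.6% higher and 18.3% lower). The groups overlapped for all 7, while they did not overlap for 10.5% of all genes. The median log2 fold change of the 7 was -0.49, against -0.03 for all genes tested.

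Mup7 had a log2 fold change of -1.93 (SE 0.71, 95% confidence interval -3.47 to -0.39, limma adjusted p = 0.0707). Mup11 was at -1.42 (SE 0.55, adjusted p = 0.0848) and Mup3 at -0.49 (SE 0.19, interval -0.91 to -0.07, adjusted p = 0.0896). Mup1 was at -1.10 (SE 0.55, interval -2.29 to 0.09, adjusted p = 0.175). Like Mup1, Mup20 (0.04, interval -0.56 to 0.64), Mup17 (0.66, -1.07 to 2.39) and Mup21 (-0.40, -3.14 to 2.33) had intervals on both sides of 0. Scaling each mouse to an equal FPKM total brought Mup3 to -0.30 (SE 0.18, limma adjusted p = 0.244, over all alternatives 0.0238 to 0.441). The library size behind FPKM, as a multiple of the fragment total, averaged 1.095 in HFD and 0.982 in NC mice, and its part in the result was not tested. These values describe bulk tissue, in which fewer hepatocytes and less Mup RNA per hepatocyte cannot be told apart.

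The count moved most with a single mouse. Without HFD3, the high mouse, 4 of the 7 were called lower in HFD: Mup7 (log2 fold change -2.44, limma adjusted p = 0.0166), Mup11 (-1.86, 0.012), Mup3 (-0.63, 0.0238) and Mup1 (-1.52, 0.0376). Without that mouse 17.4% of all genes were called, 9.5% higher and 7.87% lower. With all mice kept, fitting the 18 mice together called Mup3 alone, and weighting the mice called Mup7 alone. Over all alternatives tried, the adjusted p ran from 0.0166 to 0.193 for Mup7, 0.012 to 0.217 for Mup11, 0.0238 to 0.441 for Mup3 and 0.0376 to 0.366 for Mup1. Leaving out any other NC or HFD mouse gave 0 called. HFD3 was kept, as its labels do not set it apart, though its depth of 17163191 fragments was the lowest of the 18. Beside these values, the hepatocyte marker sum was 36652 to 54999 FPKM among NC mice, 22852 to 41042 among HFD mice (32520 for HFD3) and 28925 to 52383 among SZ-A mice. Of these 6 markers, 2 were called lower in HFD. Kupffer cell markers summed to 86.1 to 179 FPKM in NC and 126 to 248 in HFD mice, with 2 of 6 called higher. Stellate cell markers summed to 55.4 to 67.2 FPKM in NC and 60.5 to 107 in HFD mice, with 4 of 6 called higher. Of all genes, 10.7% were called higher and 9.49% lower. The sum of 4 adipocyte markers was 0.151 to 1.72 FPKM in NC and 2.08 to 43.1 in HFD mice. Its high values were those of Cidea, the only 1 of the 4 tested. Adipoq, Plin1 and Lep did not exceed 0.618, 0.294 and 0.225 FPKM in any mouse. The part of cell makeup in the Mup values was not tested.

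The second question is what SZ-A did in mice on the high-fat diet. In SZ-A against HFD, 0 of the 7 were called by limma, against 0.147% of all genes (0.0783% higher and 0.0685% lower), so hardly any gene passed this test. That share belongs to this test alone. With DESeq2 at the same thresholds, the paper reported far more genes as differing between these groups. At an unadjusted p under 0.05 there were 3 of 7 (Mup1, Mup3 and Mup11, all higher in SZ-A), against 14.8% of all genes (8.74% higher and 6.09% lower). No gene of the 7 had groups that did not overlap, as 1.28% of all genes had. Since this comparison shares the HFD mice with the one above, an opposite sign in the pair of comparisons is not independent evidence.

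Mup7 had a log2 fold change of 1.80 (SE 0.86, interval -0.06 to 3.66, limma adjusted p = 0.351). Mup1 was at 1.70 (SE 0.76, adjusted p = 0.322), Mup11 at 1.66 (SE 0.77, adjusted p = 0.336) and Mup3 at 0.56 (SE 0.20, interval 0.13 to 0.99, adjusted p = 0.214). Mup20 was at 0.28 (SE 0.38), Mup17 at -0.51 (SE 0.87) and Mup21 at -0.47 (SE 1.33). The median of the 7 was 0.56, against 0.03 for all genes tested. Above every HFD mouse lay 3 SZ-A mice for Mup11, 2 each for Mup1, Mup3, Mup7 and Mup17, 1 for Mup20 and none for Mup21.

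In SZ-A against NC, 0 of 7 were called, against 9.6% of all genes (5.31% higher and 4.3% lower), and 0 had an unadjusted p under 0.05, against 25.5% of all genes. All 7 pairs of groups overlapped, while 5.5% of all genes did not. Mup3 was at 0.07 on the log2 scale (SE 0.12, interval -0.19 to 0.32, limma adjusted p = 0.784). For the others the values ran from -0.87 (Mup21, interval -3.61 to 1.86) to 0.60 (Mup1, interval -0.69 to 1.89), with adjusted p of 0.54 to 0.953, and intervals that admit large differences. Leaving out 1 mouse moved Mup21 to between -1.86 (without NC5) and -0.12 (without SZ-A2), and Mup1 to between 0.10 (without SZ-A5) and 1.04 (without SZ-A2).

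**Figure D4:**
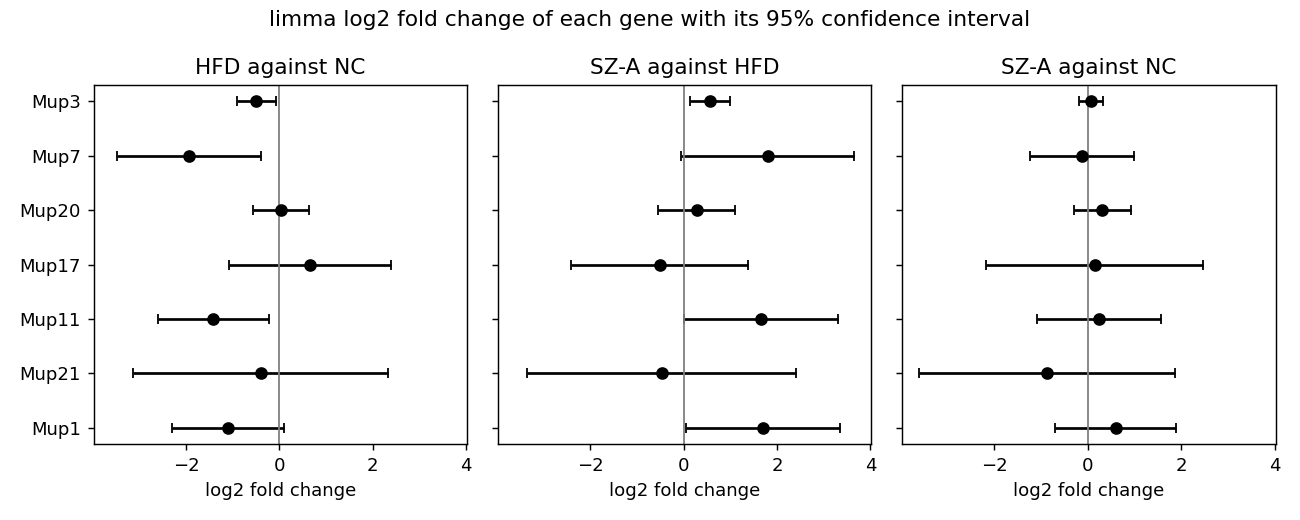
The limma log2 fold change of each of the 7 genes (points) with its 95% confidence interval (bars), in HFD against NC, SZ-A against HFD and SZ-A against NC (6 mice a group). Mup7, Mup11 and Mup3 lie below 0 in the first panel, at -1.93, -1.42 and -0.49. They lie above 0 in the second, which shares the HFD mice. The bars of Mup17, Mup20 and Mup21 cross 0 in all 3 panels.

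The summed FPKM of the 7 showed the same mice. It was 10370 to 14672 in NC (mean 12751 ± 1719, SD, n = 6). It was 4546 to 18413 in HFD (9121 ± 5099), with 18413 in HFD3 and at most 10214 in the other 5 mice. It was 7412 to 23641 in SZ-A (14706 ± 6010), lowest in SZ-A2 and highest in SZ-A5.

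Other copies had a few calls. Of the 41 Mup entries outside the 7, 14 were protein-coding, 18 were tested and 6 were at 0 in every mouse. Called were 2 of the 18 in HFD against NC (20.2% of all genes) and 2 in SZ-A against NC (9.6%). In HFD against NC, Mup14 fell by 1.79 on the log2 scale (SE 0.58, limma adjusted p = 0.0437), from 143 ± 72.7 FPKM in NC to 52.0 ± 37.0 in HFD, and the pseudogene Mup-ps12 rose by 2.13 (adjusted p = 0.0145), from 0.545 to 2.31 FPKM. Mup-ps12 had only 0 to 9 fragments per mouse in NC and 14 to 51 in HFD. Its fold change therefore depends on the 0.1 added to each FPKM. In SZ-A against HFD none of the 18 was called (0.147% of all genes) and 2 had an unadjusted limma p under 0.05 (14.8% of all genes). In SZ-A against NC, Mup18 rose by 2.04 (adjusted p = 0.0196), from 4.28 to 19.8 FPKM, and Mup-ps13 by 1.33 (adjusted p = 0.0175). Of the 150-base stretches of Mup14 34.3% were its own, and of those of Mup18 13.7%. The log2 fold changes of the 18 ran from -1.86 to 2.13 in HFD against NC. At the lower end stood Mup12, the most abundant of the other copies (mean 2394 FPKM), named after its values were seen, whose HFD mice ran from 104 (HFD1) to 4718 (HFD3), with an adjusted p of 0.105.

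Genes of growth hormone and STAT5 signalling, which acts upstream of Mup transcription, were listed as a pathway. Of 13, 10 were tested, and 4 were called higher and 0 lower in HFD against NC (10.7% and 9.49% of all genes). Socs3, a feedback inhibitor of cytokine signalling, rose by 0.87 on the log2 scale (SE 0.22, limma adjusted p = 0.0136), from 2.32 ± 0.572 to 4.47 ± 1.55 FPKM. Igfals, which carries IGF-1 in blood, rose by 0.71, Stat5a by 0.68 and Ghr, the growth hormone receptor, by 0.66, from 36.6 ± 11.5 to 55.5 ± 7.59 FPKM. Stat5b was at 0.13 (interval -0.13 to 0.38), Jak2 at 0.28 and Igf1 at -0.08, and none of these passed. None of the 10 was called in SZ-A against HFD, where 0.147% of all genes were. In SZ-A against NC Socs3 and Igfals rose and none was called lower (5.31% and 4.3% of all genes).

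Hormone receptors and liver transcription factors were listed as well. Of 12 tested, 2 were called higher and 0 lower in HFD against NC (10.7% and 9.49% of all genes). They were Thrb, a thyroid hormone receptor (0.50, from 3.39 to 4.80 FPKM), and Zhx2, a regulator of Mup genes in mouse liver (0.49, from 2.41 to 3.38 FPKM). Thra was at -0.43 and the glucocorticoid receptor gene Nr3c1 at 0.35, neither past the test. None of the 12 was called in SZ-A against HFD, where 0.147% of all genes were. In SZ-A against NC, Zhx2, Cebpb and Thrb rose and Thra fell (5.31% and 4.3% of all genes).

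Other genes known to be expressed more in male than in female liver included 16 that were tested. Of these, 5 were called lower and 1 higher in HFD against NC (9.49% and 10.7% of all genes). Their median log2 fold change was -0.58, against -0.03 for all genes. Serpina1e, a protease inhibitor of blood plasma, fell by 2.41 on the log2 scale (SE 0.45, limma adjusted p = 0.00246), from 2184 ± 307 to 566 ± 562 FPKM. Elovl3, a fatty acid elongase, fell by 1.83, from 169 ± 89.2 to 46.2 ± 20.9 FPKM, and Cyp4a12b, an arachidonic acid hydroxylase, fell by 1.83. Gstp1 fell by 0.92 and Cyp2d9 by 0.75, and C4a, a complement-related gene, rose by 1.24. None of the 16 was called in SZ-A against HFD (0.147% of all genes). In that comparison 16 of 16 had a log2 fold change above 0 (median 0.54, against 0.03 for all genes tested). An unadjusted limma p under 0.05 was found for 6, against 14.8% of all genes. These counts share the HFD mice, and the genes share the libraries. In SZ-A against NC, Hsd3b5, a steroid-metabolising enzyme, rose by 3.92, C4a rose, and Elovl3 fell by 1.61 (of all genes, 5.31% were called higher and 4.3% lower).

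Of 20 genes known to be expressed more in female liver, 7 reached the level needed for the test. In HFD against NC 3 were called higher and 1 lower (10.7% and 9.49% of all genes). Cyp2b9, a cytochrome P450, went from 0.280 ± 0.311 FPKM in NC to 88.2 ± 57.2 in HFD, with 43.1 (SD 34.04) in SZ-A mice. Cyp2b13, its close relative, was near 0 in NC (mean 0.00942 FPKM) and at 4.69 ± 5.92 in HFD. Atp6v0d2 rose by 1.2 and Cyp17a1 fell by 1.57 on the log2 scale. None of the 7 was called in SZ-A against HFD, where 0.147% of all genes were. In SZ-A against NC Cyp2b9 rose and none was called lower (5.31% and 4.3% of all genes). Cyp2b9 and Cyp2b13 are related copies, so their fragments may be split between them, and their fitted fold changes depend on the 0.1 added to each FPKM.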

How the data were processed

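Liver poly-A RNA of 18 mice was sequenced as 150-base read pairs on an Illumina NovaSeq, with a library kit (NEBNext Ultra) for which the sources used here state no strand setting. The authors aligned reads to GRCm38/mm10 with HISAT2 2.0.5 and deposited 1 table of FPKM, without a filter on low values. The submitters' processing notes also name featureCounts 1.5.0-p3. The library size behind the deposited FPKM was the fragment total times 0.9325 to 1.1414. The authors' DESeq2 test was not repeated. Whole fragments worked back from FPKM entered the limma fits in the voom alternatives only. They also gave the depths, the fragment counts and shares, and the check for duplicates.

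Groups were taken from sample titles. Each comparison was fitted on its 2 groups in R 4.3.3 with limma 3.58.1 (lmFit, eBayes with trend) on log2(FPKM + 0.1), keeping 10216 genes whose FPKM averaged 1 or more over all mice, without covariates, and p-values were adjusted over all of them. Fold changes are on that scale, which understates those of low genes. The procedure was tested on simulated data in which every mouse had the spread of the NC mice. That test does not cover genes with a wider spread in HFD, such as Mup7 (SD of log2 values 0.47 in NC and 1.95 in HFD). Labels do not say how mice were housed, so p-values measure the spread between these samples. No pair of mice within a group was a duplicate (chi-square per degree of freedom at least 18.6 over 45 pairs).

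Transcripts came from GENCODE M21 and promoters from the RefSeq tables. For coding sequences, the transcript nearest in coding length to that of Mup20 was used (Biopython 1.88). Other values were computed with Python 3.11.15 (pandas 2.3.3, numpy 2.4.6, scipy 1.17.1).

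The members and lists were chosen with earlier results of these data known. Named were the 7 genes, called copies, the 3 most alike genes and up to 4 genes of each list, called genes first and then those of largest change, with those marked as chosen later and a few further list genes outside that rule (such as Stat5b, Jak2, Igf1, Thra and Nr3c1), named with their values already known. Alternatives were other pseudocounts, filters, scalings, fits, weights, a replicate block, thresholds, voom on whole fragments, and each mouse left out. Voom with plain library totals was added after seeing the data.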

Additional observations from a re-analysis of the deposited data

Results flagged for a closer look

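In groups of 6 mice, a value was picked out where its gap to the nearest other mouse exceeded Dixon's critical share of the group's range. Chance alone picks out about 1 in 20 groups where values are normally distributed, which FPKM without a log scale need not be. The number found is not set against that rate, also since Mup10 and Mup12 were looked at after their values had been seen. Mup1 was 139.5 FPKM in SZ-A5, against at most 37.1 in the other SZ-A mice. Mup21 was 3.10 FPKM in NC5, against at least 160 in the other NC mice, and 618 FPKM in HFD3, against at most 170 in the other HFD mice. Mup12 was 4718 FPKM in HFD3, against at most 1429. The summed FPKM of all Mup entries was 24815 in HFD3, against at most 12183. Mup10 was 118 FPKM in HFD5, against at most 1.95, and its SZ-A values of 775 and 1136 were not picked out, since a pair of high mice closes the gap.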

How the results depend on the processing

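Over the 3 counts of members called, the range of settings gave 0 except in HFD against NC, where all 18 mice in one fit gave 1 (Mup3, with 2268 of all genes called), sample weights gave 1 (Mup7, 2666 genes), an unadjusted p under 0.05 with the fold threshold gave 3 (2961 genes) and leaving out 1 mouse gave 0 to 4 (4 without HFD3, with 1775 genes, otherwise 0), against 2062 genes as reported, and in SZ-A against HFD, where the unadjusted p gave 3 (922 genes). Of 504 refits of the 21 log2 fold changes, 477 kept their direction and call, 6 gained a call and 21 changed direction, all of the last in values that were not called. With sample weights, Mup17 was at -0.21 in HFD against NC and -0.46 in SZ-A against NC, and Mup21 at 0.42 in SZ-A against HFD. Leaving out 1 mouse gave, in HFD against NC, -0.11 to 0.94 for Mup17, -0.19 to 0.23 for Mup20 and -1.39 to 0.52 for Mup21. It gave, in SZ-A against HFD, -1.13 to 0.072 for Mup17 and -1.40 to 0.28 for Mup21, and, in SZ-A against NC, -0.40 to 0.33 for Mup7, -0.033 to 0.70 for Mup11 and -0.62 to 0.73 for Mup17. Among values that kept their direction, it moved by over 1.5 times Mup20 in SZ-A against HFD (0.048 without SZ-A5 to 0.50 without HFD3) and, in SZ-A against NC, Mup1 (0.10 to 1.04), Mup3 (0.0096 to 0.12), Mup20 (0.084 to 0.48) and Mup21 (-1.86 to -0.12). Of the 21 values, 13 never changed direction, among them Mup1, Mup3, Mup7 and Mup11 in HFD against NC and in SZ-A against HFD. The cause was not tested. Equal replicate numbers share only a number (correlations of deviations from the group means -0.12 to 0.29, over 0.1 in 3 of 18 pairs), and the replicate block gave 0 members called in each comparison, with 1647 genes called in HFD against NC (2062 without it), 0 in SZ-A against HFD (15 without it) and 922 in SZ-A against NC (981 without it). Over the settings with an adjusted p, genes called in SZ-A against HFD ranged from 0 to 233. In HFD against NC they were 1271 with a mean FPKM of at least 5, and in SZ-A against NC 564 without a filter, 1682 with sample weights, 601 without SZ-A3 and 629 without SZ-A6. Scaling each mouse to an equal FPKM total moved the median of all genes to 0.15 in HFD against NC (2100 higher and 334 lower, in place of 1092 and 970) and to -0.15 in SZ-A against HFD (10 and 206, in place of 8 and 7). No direction of a member changed, and Mup3 in HFD against NC went from -0.49 to -0.30, or to -0.33 with voom on plain library totals. Among the members, depth limits only the low values of Mup21 and Mup1.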

Other observations

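MUPs belong to the lipocalins, and other lipocalin genes of the liver were described for comparison. Of 10 listed, 8 were tested, and in HFD against NC 4 rose and 2 fell by limma (10.7% and 9.49% of all genes). Lcn2, an iron-scavenging protein of the acute phase, rose by 4.34 on the log2 scale (SE 0.56), from 2.24 ± 1.87 to 54.6 ± 57.7 FPKM. The orosomucoid genes Orm2, Orm3 and Orm1, which encode acute phase plasma proteins, rose by 3.25, 3.10 and 0.88. Apom, which carries sphingosine-1-phosphate on HDL, fell by 0.89 (SE 0.10), from 192 ± 25.4 to 103 ± 11.9 FPKM, and Rbp4, the retinol carrier of plasma, fell by 0.70. In SZ-A against HFD, Apom rose by 0.74 (SE 0.12, limma adjusted p = 0.0341), to 174 ± 27.7 FPKM, against 0.0783% of all genes that rose. In SZ-A against NC, Lcn2 rose by 3.22 and Orm3 by 2.11, and none of the 8 was called lower (5.31% and 4.3% of all genes).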
